A study of Homo sapiens with 9 samples.

Results

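The genes described here encode the 5 subunits of the transcription factor NF-kB (NFKB1, NFKB2, RELA, RELB and REL) and 5 of its inhibitors and regulators (NFKBIA, NFKBIE, NFKBIZ, BCL3 and TNFAIP3). They were taken from the deposited table by symbol, and all 10 were found among its 60564 genes. The table came from RNA-seq of BxPC3, an established line of human cells from a pancreatic ductal adenocarcinoma, in 3 groups of 3 libraries labelled as biological replicates. One group received siRNA (small interfering RNA) directed at STAT3 by transfection, a second was treated with 0.1 µM WB436B, a compound given here only by its code name, and the third received vehicle. All groups were grown in the same serum-containing medium. The sources used here give neither the nature of the vehicle, the time under treatment nor a non-targeting siRNA, so the loss of STAT3 and the transfection itself cannot be told apart in comparisons with vehicle. Nothing beyond the term biological replicate says that the cultures were separate, so each p-value reflects only how far these libraries spread.

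NF-kB is a family of dimers. In resting cells the inhibitors of the IkB type hold most dimers in the cytoplasm; signals from receptors such as those for tumour necrosis factor or interleukin-1 activate a kinase complex that marks the inhibitor for destruction, and the freed dimer enters the nucleus. NFKB1 and RELA form the main dimer of this canonical route, and NFKB2 and RELB that of the slower non-canonical route. Several inhibitor genes, NFKBIA and TNFAIP3 among them, are themselves induced by NF-kB and close a negative feedback loop.

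The start regions of these genes are shown because the feedback runs through kappaB sites in them. RefSeq promoter windows (GRCh38.p14, 250 bases before and 50 after each start) were at hand for 8 members with 13 windows in all, without RELB and NFKBIE. The 10-base kappaB consensus, searched on both strands, matched in at least 1 window of 7 of the 8 members, while 7.09% of all 27305 symbols with a window held a match. The STAT palindrome TTCNNNGAA, which reads the same on both strands, matched in 1 member (RELA), against 9.38% of all symbols. A match is only a run of letters, and binding was not measured. The stretches below run 5′ to 3′ on the gene's own strand, from 120 bases before the start to 20 bases after it, and capitals mark kappaB matches (overlapping ones joined) or, in RELA, the STAT palindrome.
NFKBIA chr14:35404730-35404869 (minus strand): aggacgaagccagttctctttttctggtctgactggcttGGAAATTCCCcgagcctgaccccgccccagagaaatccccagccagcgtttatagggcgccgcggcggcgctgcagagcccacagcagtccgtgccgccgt
BCL3 chr19:44748588-44748727 (plus strand): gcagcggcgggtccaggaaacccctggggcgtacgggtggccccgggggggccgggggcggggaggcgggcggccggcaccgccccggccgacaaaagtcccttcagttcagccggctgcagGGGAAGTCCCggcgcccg
TNFAIP3 chr6:137867139-137867278 (plus strand): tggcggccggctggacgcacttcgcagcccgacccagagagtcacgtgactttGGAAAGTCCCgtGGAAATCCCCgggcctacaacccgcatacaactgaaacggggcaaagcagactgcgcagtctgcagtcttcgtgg
NFKB1 chr4:102501239-102501378 (plus strand): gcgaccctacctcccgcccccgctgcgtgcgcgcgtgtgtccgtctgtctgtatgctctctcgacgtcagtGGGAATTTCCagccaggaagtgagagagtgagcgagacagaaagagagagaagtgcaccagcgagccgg
NFKB2 chr10:102394458-102394597 (plus strand): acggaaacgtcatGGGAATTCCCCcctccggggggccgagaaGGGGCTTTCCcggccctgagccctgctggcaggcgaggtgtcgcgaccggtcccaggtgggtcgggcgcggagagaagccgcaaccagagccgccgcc
RELA chr11:65663838-65663977 (minus strand): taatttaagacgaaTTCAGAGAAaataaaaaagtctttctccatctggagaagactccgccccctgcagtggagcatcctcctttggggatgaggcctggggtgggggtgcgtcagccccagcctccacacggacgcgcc
NFKBIA and NFKB1 carried 1 kappaB match in these stretches, TNFAIP3 carried 2 side by side, and NFKB2 carried 3, of which 2 overlap. The match of BCL3 began 2 bases past the start. The shown window of RELA held no kappaB match, and neither did its second window, which also lacked the STAT palindrome. REL and NFKBIZ, whose windows also held kappaB matches, are not shown. NFKB1, NFKB2 and RELA had further windows that are not shown either. The first bases after the start, searched over less than the full 50, lie in an annotated transcript in all of these further windows. They do so in the shown windows too, except those of NFKB2 and RELA. Of the further windows, that of NFKB1 held 0 kappaB matches, and those of NFKB2 held 0 and 2.

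Values are FPKM, fragments per kilobase of transcript scaled to the fragments mapped in the library, so levels can be set beside each other between genes. Depth, estimated from the step between low FPKM values, was 14900000 to 20400000 fragments in 8 libraries and 47200000 in vehicle 1. A gene was tested if it reached 1 FPKM in at least 3 libraries, which 12747 genes and all 10 members did. Fold changes are differences of mean log2(FPKM + 1), and a gene counts as called where limma gave it a Benjamini-Hochberg adjusted p below 0.05. STAT3, the target of the siRNA, held 2.98, 2.58 and 3.02 FPKM in the siRNA libraries and 10.5, 10.9 and 10.8 FPKM under WB436B, against 16.4, 15.8 and 15.1 FPKM under vehicle. The epithelial and ductal markers EPCAM, CDH1, KRT7, KRT8, KRT18 and KRT19 lay above 27 FPKM in every library, and MUC1 averaged 1.64 FPKM after the siRNA, 1.80 FPKM under WB436B and 8.18 FPKM under vehicle. Of the markers of other cell types, 2 of 7 fibroblast, 2 of 7 leukocyte and 0 of 5 endothelial genes were expressed enough to be tested. The fibroblast genes summed to 3.69 to 4.03 FPKM after the siRNA and 0.911 to 1.07 FPKM under WB436B, against 2.69 to 2.85 FPKM under vehicle. COL1A1 and COL3A1 were called higher after the siRNA and COL1A1 lower under WB436B, while COL1A2 did not exceed 0.00485 FPKM. COL3A1 reached 1 FPKM only after the siRNA, so it was tested only through its level there. The leukocyte genes summed to 3.96 to 6.29 FPKM after the siRNA and 3.26 to 3.67 FPKM under WB436B, against 5.995 to 8.62 FPKM under vehicle. CD14 was called lower in both comparisons and CD68 lower under WB436B, while PTPRC did not exceed 0.0193 FPKM. Only under vehicle did CD14 reach 1 FPKM in every library, so it was tested only through its level there. The endothelial genes summed to at most 1.17 FPKM in any library, and KDR was listed at 0 throughout. The part of these markers in the changes of the NF-kB genes was not tested.

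**Figure D1:**
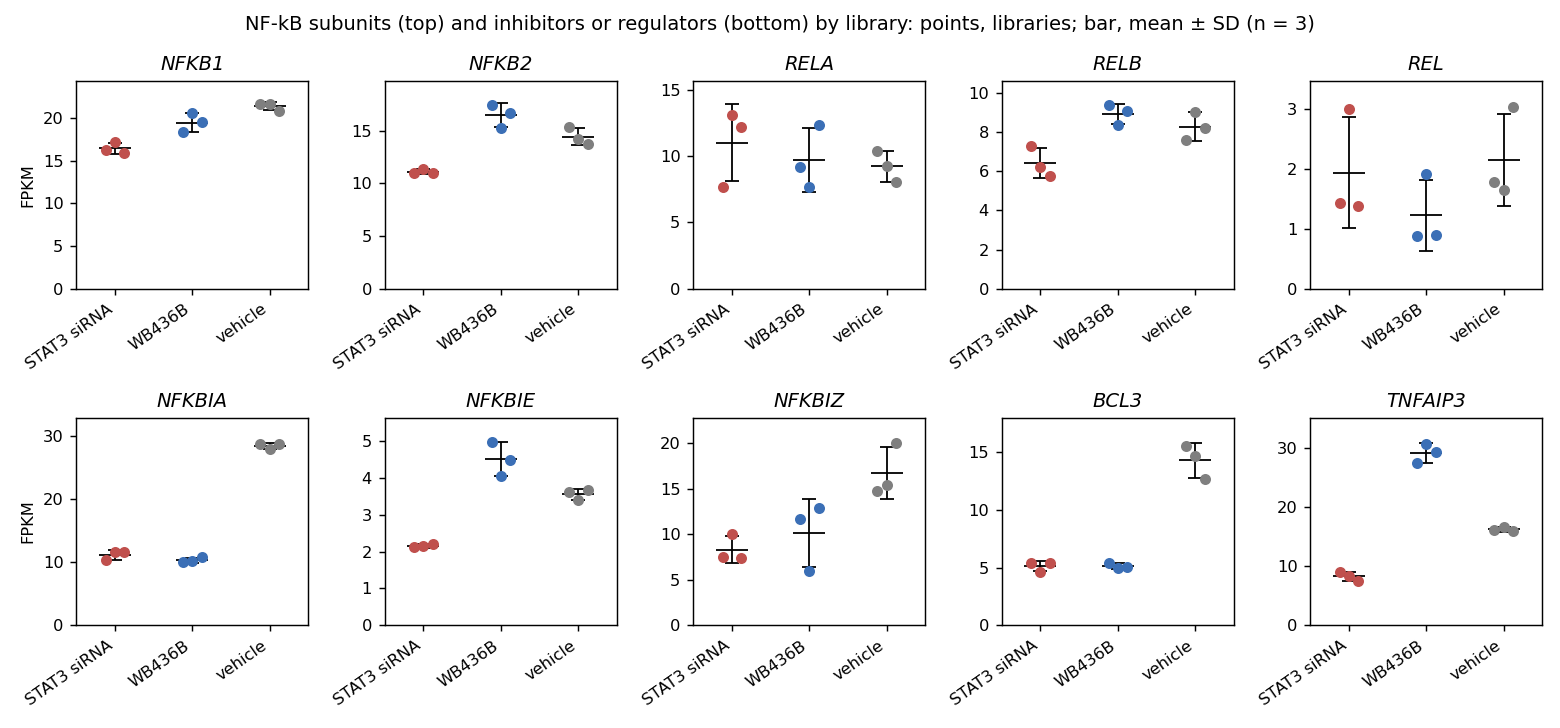
FPKM of the 10 members (vertical axis, from 0) in the 3 STAT3 siRNA, 3 WB436B and 3 vehicle libraries; points are libraries and the bar is the mean with its SD (n = 3). NFKBIA and BCL3 lie low in both treated groups, TNFAIP3 and NFKBIE lie low after the siRNA and high under WB436B, and RELA, REL and NFKBIZ scatter within groups.

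After STAT3 siRNA, 8 of the 10 members fell and none rose, while of all tested genes 52.1% were called, 22.3% lower and 29.8% higher. All 5 inhibitors and regulators fell, led by BCL3 and NFKBIA, which held 35.9% and 39.2% of their vehicle means. On the log2(FPKM + 1) scale these were the only 2 members called with a log2 fold change of at least 1 in size, which 2.76% of all tested genes were in the lower and 1.04% in the higher direction. The subunits NFKB1, NFKB2 and RELB fell by less, to 77.0%, 77.0% and 77.5% of vehicle, while RELA and REL were not called. The median log2 fold change of the members was -0.44, beside 0.06 for all tested genes. In 8 of 10 members the siRNA libraries did not overlap the vehicle libraries, which was so in 60.5% of all tested genes. In bulk RNA, fewer cells in a given state and less RNA per cell cannot be told apart.

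Under WB436B, 3 members fell and 3 rose, while of all tested genes 65.9% were called, 41.1% lower and 24.9% higher. NFKBIA, BCL3 and NFKBIZ fell, TNFAIP3, NFKBIE and NFKB2 rose, and NFKB1, RELA, RELB and REL were not called. Again only NFKBIA and BCL3 were called with a log2 fold change of at least 1 in size, beside 7.93% of all tested genes in the lower and 2.54% in the higher direction. The members had a median log2 fold change of -0.04, beside -0.13 for all tested genes, and 6 of 10 did not overlap vehicle, beside 70.1% of all tested genes. Median-of-ratios scaling moved the median of all genes under WB436B to 0.11 and called 5 members higher and 2 lower, with 59.7% of all called genes higher instead of 37.7%. Quantile normalization moved it to 0.03 and called 2 members higher and 4 lower. With a filter of 5 FPKM in at least 3 libraries, 7042 genes and 8 members were tested. The median was then 0.02, and 50.4% of called genes were higher, with 2 members called higher and 4 lower. Fold changes of the called members under WB436B are therefore also given relative to the median of all genes tested at 1 FPKM. That reference depends on the filter and the scaling. Both comparisons share the vehicle libraries.

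**Figure D2:**
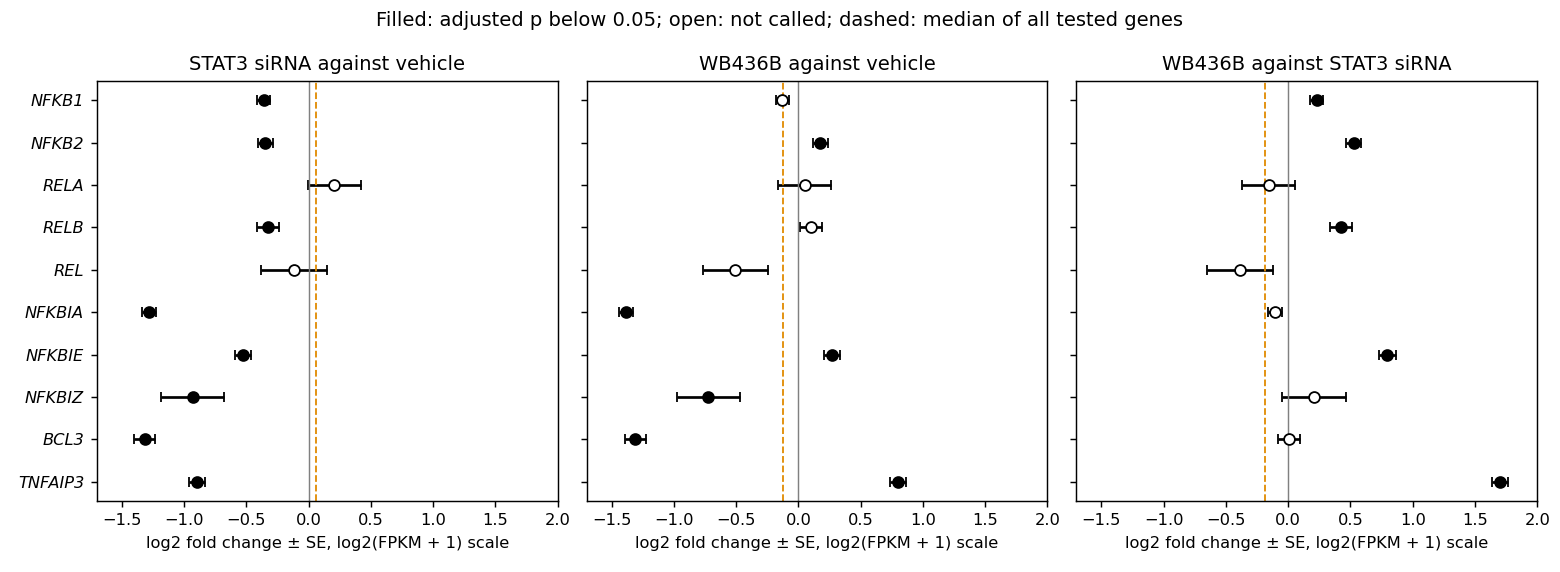
Log2 fold change with its standard error (horizontal axis) of each member in the 3 comparisons; filled points were called, open points were not, and the dashed line is the median of all tested genes. TNFAIP3 stands at -0.90 after the siRNA and 0.80 under WB436B, while NFKBIA and BCL3 stand below -1.2 in both.

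Among the subunits, NFKB1 encodes p105, the precursor of p50. It held 16.3, 17.2 and 15.9 FPKM after STAT3 siRNA and 18.3, 20.6 and 19.5 FPKM under WB436B, against 21.6, 21.7 and 20.9 FPKM under vehicle. All 3 siRNA libraries lay below the other 6, and the WB436B libraries lay between the groups. The log2 fold change was -0.36 after the siRNA (SE 0.0517, adjusted p = 0.000539) and -0.13 under WB436B (adjusted p = 0.0518), the same as the median of all genes to within 0.01. Under WB436B median-of-ratios scaling turned its sign (0.15, adjusted p = 0.0281) and quantile normalization called it lower (-0.21, adjusted p = 0.0081), so no direction is given. Leaving out WB436B 2 gave -0.17 (adjusted p = 0.0283), and leaving out siRNA 2 gave -0.13 (adjusted p = 0.0491).

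NFKB2 encodes p100, which is both the precursor of p52 and an inhibitor of RELB dimers. Its level was 11.0, 11.4 and 11.0 FPKM after the siRNA and 17.5, 15.2 and 16.7 FPKM under WB436B, against 15.3, 14.3 and 13.8 FPKM under vehicle. The siRNA libraries lay apart below, and the WB436B libraries overlapped vehicle at their lower end. The log2 fold change was -0.35 (adjusted p = 0.00145) after the siRNA. Under WB436B it was 0.18 (adjusted p = 0.0296), or 0.30 relative to the median of all genes, and that call was lost without vehicle 2 (adjusted p = 0.0772), vehicle 3 (0.0906), WB436B 1 (0.1) or WB436B 3 (0.0753). Quantile normalization (0.13, adjusted p = 0.115), dropping the filter and fitting WB436B and vehicle alone each ended the call too.

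RELB, the partner of p52, had 7.27, 6.21 and 5.77 FPKM after the siRNA and 9.38, 8.36 and 9.06 FPKM under WB436B, against 7.59, 9.04 and 8.22 FPKM under vehicle. Only the siRNA libraries were separate from vehicle, with a narrow gap. It fell by 0.33 on the log2 scale after the siRNA (SE 0.0883, adjusted p = 0.014), a call lost without vehicle 2 (-0.27, adjusted p = 0.0503). Under WB436B the value was 0.10 (adjusted p = 0.349, 95% interval -0.10 to 0.30), and median-of-ratios scaling called it higher (0.37, adjusted p = 0.00487).

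RELA encodes p65, the main transactivating subunit, and REL encodes c-Rel, best known in lymphocytes. RELA held 7.71, 13.1 and 12.2 FPKM after the siRNA and 9.16, 7.64 and 12.3 FPKM under WB436B, against 10.4, 9.23 and 8.03 FPKM under vehicle. REL was the weakest member, with 1.43, 3.01 and 1.38 FPKM after the siRNA and 0.875, 1.91 and 0.899 FPKM under WB436B, against 1.78, 1.64 and 3.04 FPKM under vehicle. For both genes the 3 groups overlapped. The 95% interval of the log2 fold change of RELA was -0.28 to 0.69 after the siRNA and -0.43 to 0.53 under WB436B. That of REL was -0.72 to 0.49 after the siRNA and -1.11 to 0.10 under WB436B, which leaves room for changes in either direction. Without WB436B 2, REL was called lower under WB436B (-0.71, adjusted p = 0.0475).

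These genes and NFKBIZ differed from the other members in how far libraries of 1 group lay apart. The within-group SD of log2(FPKM + 1) was 0.301 in RELA, 0.375 in REL and 0.365 in NFKBIZ, at the 92.2, 95.1 and 94.7 percentile of all tested genes, whose median was 0.0977. The other 7 members lay between 0.0579 in NFKB1 and 0.116 in RELB. GENCODE 29 lists 27 transcripts for RELA, 3 for REL and 11 for NFKBIZ, and between 4 and 12 for the others, TNFAIP3 with 11 among them. In REL 43.3% of the exon bases are shared with AC010733.2, a gene model on the same strand, and no other member shared more than 2.01%. The sources used here do not say how the authors' values divide fragments among transcripts or overlapping models, and its part in this spread was not tested.

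**Figure D3:**
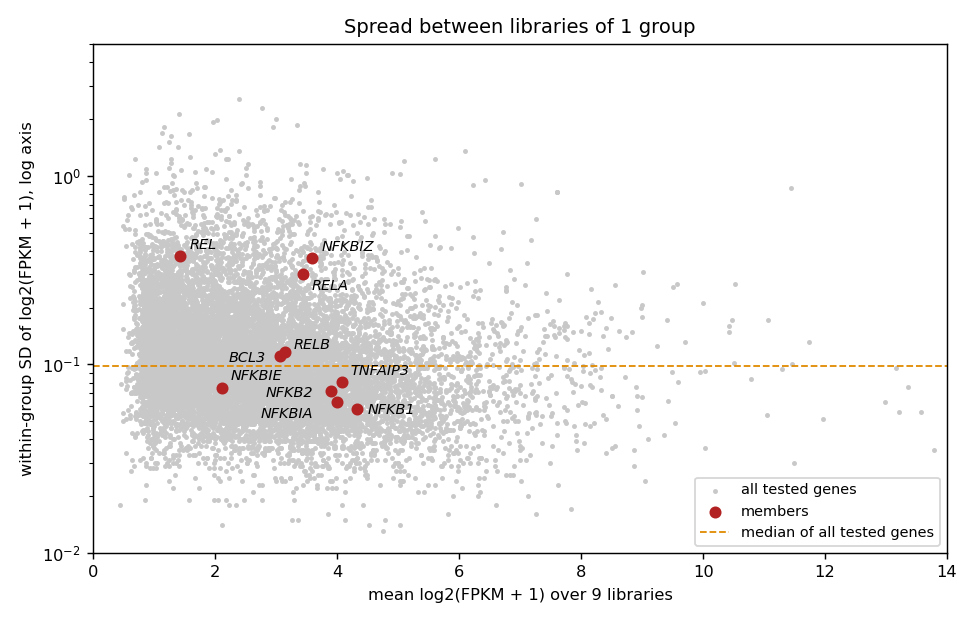
Within-group SD of log2(FPKM + 1) (vertical, log axis) against the mean log2(FPKM + 1) over 9 libraries (horizontal) for all tested genes (grey) and the members (red). REL, NFKBIZ and RELA lie above 0.3, while the other 7 members lie near or below the dashed median of 0.0977.

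The inhibitor NFKBIA encodes IkB-alpha, the first IkB to be degraded and resynthesised in the canonical response. It held 10.3, 11.6 and 11.5 FPKM after the siRNA and 9.94, 10.1 and 10.8 FPKM under WB436B, against 28.7, 27.9 and 28.6 FPKM under vehicle. Every treated library lay far below every vehicle library, and the 2 treated groups overlapped. NFKBIA fell by 1.28 on the log2 scale after the siRNA (SE 0.055, adjusted p = 8.72e-07) and by 1.38 under WB436B (SE 0.055, adjusted p = 2.41e-07), or by 1.26 relative to the median of all genes.

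BCL3 encodes an atypical, nuclear IkB that binds p50 and p52 dimers and can activate as well as repress. Its level was 5.39, 4.60 and 5.39 FPKM after the siRNA and 5.42, 5.00 and 5.01 FPKM under WB436B, against 15.6, 14.6 and 12.6 FPKM under vehicle. As for NFKBIA, both treated groups lay below vehicle and overlapped each other. The log2 fold changes were -1.32 (SE 0.0848, adjusted p = 6.58e-06) after the siRNA and -1.31 (adjusted p = 2.64e-06) under WB436B, or -1.18 relative to the median of all genes. The decreases of NFKBIA and BCL3 kept their call under every alternative run.

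NFKBIZ encodes IkB-zeta, another nuclear IkB, which is induced by interleukin-1 and acts as a coactivator of secondary response genes. It held 7.51, 10.1 and 7.38 FPKM after the siRNA and 11.7, 5.92 and 12.9 FPKM under WB436B, against 14.8, 15.5 and 20.03 FPKM under vehicle. Vehicle lay above both treated groups, and WB436B 2 lay well below the other WB436B libraries. The log2 fold change was -0.93 (SE 0.255, adjusted p = 0.015) after the siRNA, and without vehicle 3 it was -0.80 (adjusted p = 0.0517). Under WB436B it was -0.72 (adjusted p = 0.034), or -0.60 relative to the median of all genes, a call lost without WB436B 2 (-0.41, adjusted p = 0.0583), vehicle 2 (-0.77, adjusted p = 0.0575) or vehicle 3 (-0.59, adjusted p = 0.106). Median-of-ratios scaling (-0.45, adjusted p = 0.15), dropping the filter and fitting WB436B and vehicle alone each ended this call as well.

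TNFAIP3 encodes A20, a ubiquitin-editing enzyme that shuts off signalling upstream of the IkB kinases. It held 8.95, 8.28 and 7.55 FPKM after the siRNA and 27.3, 30.6 and 29.2 FPKM under WB436B, against 16.2, 16.7 and 15.8 FPKM under vehicle. The 3 groups did not overlap, with vehicle in the middle. TNFAIP3 fell to 50.9% of vehicle after the siRNA (log2 fold change -0.90, SE 0.0649, adjusted p = 1.22e-05) and rose to 179% of vehicle under WB436B (0.80, SE 0.0649, adjusted p = 9.74e-06), or by 0.93 relative to the median of all genes.

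NFKBIE encodes IkB-epsilon, which acts later than IkB-alpha. It was weaker, with 2.11, 2.15 and 2.22 FPKM after the siRNA and 4.98, 4.07 and 4.48 FPKM under WB436B, against 3.62, 3.39 and 3.66 FPKM under vehicle. The order of the groups was that of TNFAIP3, again without overlap. Its log2 fold change was -0.53 (SE 0.067, adjusted p = 0.000271) after the siRNA and 0.27 (adjusted p = 0.00683) under WB436B, or 0.40 relative to the median of all genes. TNFAIP3 and NFKBIE kept both calls under each other scaling, filter or variance model in which they were tested and without any 1 library, but neither reaches a log2 fold change of 1 in size, and NFKBIE was not tested at 5 FPKM.

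The comparison of WB436B with STAT3 siRNA tests the difference between both effects directly. Of the 10 members, 5 were higher under WB436B and none was lower, while of all tested genes 64.1% were called, 20% higher and 44.1% lower. TNFAIP3 alone passed a log2 fold change of 1, as did 2.09% of all tested genes upward and 5.11% downward. The median over members was 0.22, beside -0.18 over all tested genes. The difference was 1.70 in TNFAIP3 (SE 0.0649, adjusted p = 3.29e-07), 0.80 in NFKBIE, 0.53 in NFKB2, 0.43 in RELB and 0.23 in NFKB1. In these 5 genes the WB436B libraries all lay above the siRNA libraries, while 70.2% of all tested genes had groups without overlap. The 5 calls held when any 1 library was left out.

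The other 5 members were not called between the treatments. For NFKBIA the difference was -0.10 (95% interval -0.23 to 0.02, adjusted p = 0.126) and for BCL3 it was 0.01 (-0.19 to 0.20, adjusted p = 0.953). Median-of-ratios scaling made both higher under WB436B, at 0.21 (adjusted p = 0.00707) for NFKBIA and 0.30 (adjusted p = 0.0146) for BCL3. NFKBIA was called lower without siRNA 1 (-0.16, adjusted p = 0.0273). For NFKBIZ the difference was 0.21 (-0.38 to 0.79), and without WB436B 2 it was 0.52 and called (adjusted p = 0.0246). RELA stood at -0.16 (-0.64 to 0.33) and REL at -0.39 (-0.99 to 0.22).

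Set in order of level, vehicle cells held most NFKBIA (28.4 ± 0.472 FPKM, SD, n = 3) and NFKB1 (21.4 ± 0.439 FPKM). NFKBIZ, TNFAIP3, NFKB2 and BCL3 followed at 16.8 ± 2.85, 16.2 ± 0.412, 14.5 ± 0.807 and 14.3 ± 1.50 FPKM, and neighbours in this run overlapped apart from TNFAIP3 and NFKB2. RELA (9.23 ± 1.19 FPKM) and RELB (8.29 ± 0.725 FPKM) overlapped, and NFKBIE and REL came last with 3.56 ± 0.142 and 2.15 ± 0.768 FPKM. After the siRNA NFKB1 came first at 16.5 ± 0.661 FPKM, ahead of NFKBIA, NFKB2 and RELA, which overlapped at 11.1 ± 0.749, 11.1 ± 0.244 and 11.0 ± 2.90 FPKM. Under WB436B TNFAIP3 came first at 29.1 ± 1.64 FPKM, ahead of NFKB1 (19.5 ± 1.12 FPKM) and NFKB2 (16.5 ± 1.14 FPKM), and NFKBIA stood at 10.3 ± 0.437 FPKM.

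The make-up of the subunit pool was compared by shares and a ratio within each library, where scaling between libraries plays no part. Sums of FPKM do depend on that scaling. The 5 subunits summed to 43.7, 51.0 and 46.3 FPKM after the siRNA and 55.2, 53.7 and 58.5 FPKM under WB436B, against 56.8, 55.9 and 54.0 FPKM under vehicle. NFKB2 and RELB together took 41.8%, 34.6% and 36.2% of that sum after the siRNA and 48.7%, 43.9% and 44.0% under WB436B, against 40.4%, 41.7% and 40.7% under vehicle. The WB436B libraries lay above all others. The share differed by 4.57 percentage points between WB436B and vehicle and by 8.01 points between WB436B and the siRNA (exact permutation test, two-sided, p = 0.1 each, the smallest possible with 3 against 3, 0.225 adjusted over 9 tests).

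RELA took 17.6%, 25.8% and 26.4% of the subunit sum after the siRNA and 16.6%, 14.2% and 21.1% under WB436B, against 18.3%, 16.5% and 14.9% under vehicle. These ranges overlapped, and the exact permutation p was 0.2 for the siRNA and 0.8 for WB436B against vehicle. The ratio of NFKBIA to RELA was 1.33, 0.883 and 0.945 after the siRNA and 1.08, 1.32 and 0.873 under WB436B, against 2.76, 3.02 and 3.56 under vehicle. All 6 treated libraries lay below all 3 vehicle libraries. The log2 ratio fell by 1.58 after the siRNA and by 1.52 under WB436B (exact permutation test, two-sided, p = 0.1 each, 0.225 adjusted), and the treated groups differed by 0.06 (p = 1).

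**Figure D4:**
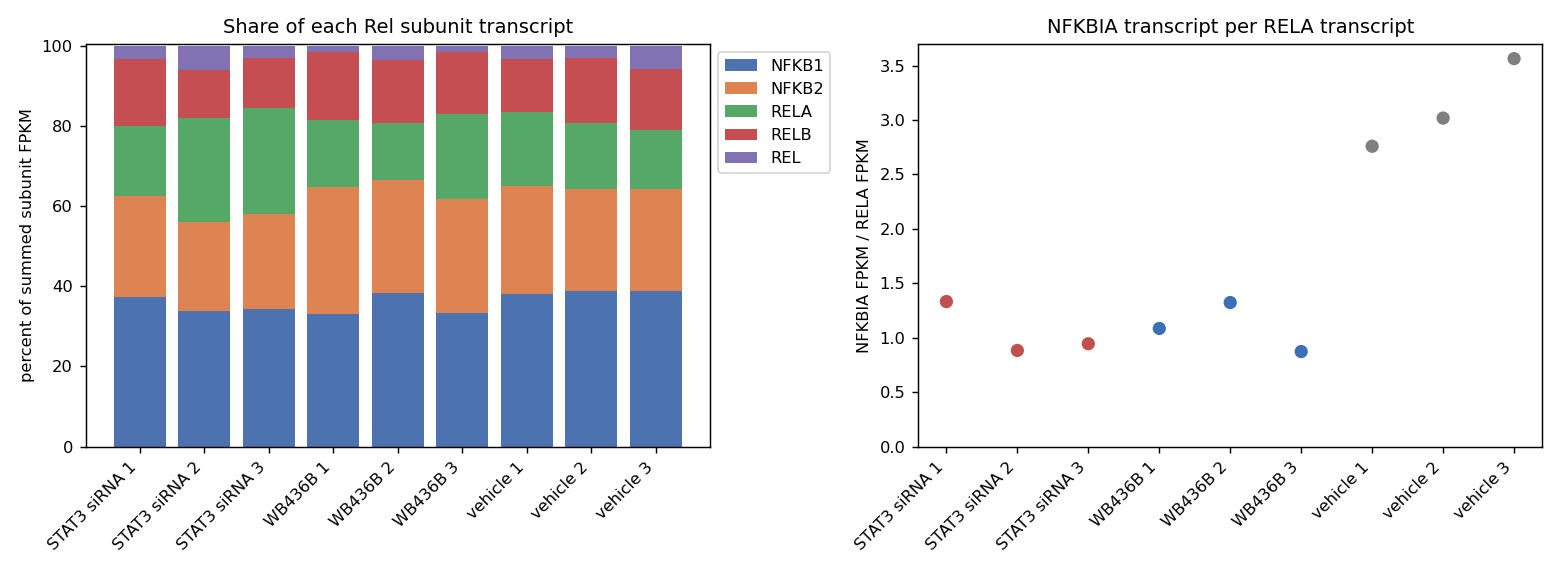
Left, share of each subunit in the summed subunit FPKM (percent) by library; right, NFKBIA FPKM over RELA FPKM by library. The NFKB2 and RELB segments together are widest in the 3 WB436B libraries, and the ratio lies between 0.873 and 1.33 in the 6 treated libraries and above 2.7 in the 3 vehicle libraries.

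Other genes of the pathway were taken from lists that leave out the members. Their counts stand beside 52.1% of all tested genes called after the siRNA (22.3% lower, 29.8% higher) and 65.9% under WB436B (41.1% lower, 24.9% higher), and their medians beside 0.06 and -0.13. Of 10 kinases and their adaptors, 6 fell and 2 rose after the siRNA, and 6 fell and 2 rose under WB436B, with median log2 fold changes of -0.23 and -0.30. The replicate block with median-of-ratios scaling left 3 lower and 2 higher under WB436B. MAP3K14 (NIK), the kinase that starts p100 processing, rose by 0.71 on the log2 scale after the siRNA (adjusted p = 0.00255) and by 0.83 under WB436B (adjusted p = 0.000656). It held 2.77, 4.50 and 4.06 FPKM after the siRNA and 3.90, 4.25 and 4.30 FPKM under WB436B, against 2.09, 1.99 and 1.61 FPKM under vehicle. IKBKE, an IKK-related kinase, fell by 0.73 and 0.81 in the same comparisons, and TBK1 fell by 0.66 after the siRNA. TBK1 averaged 6.36 FPKM under WB436B, against 8.27 FPKM under vehicle. IKBKB is a catalytic subunit of the canonical kinase complex. It fell by 0.74 under WB436B and averaged 4.01 FPKM after the siRNA, against 4.82 FPKM under vehicle. CHUK, another catalytic subunit of that complex, averaged 3.39 FPKM after the siRNA and 6.58 FPKM under WB436B, against 4.37 FPKM under vehicle.

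Of 15 adaptors and ubiquitin ligases 14 were tested, of which 3 fell and 2 rose after the siRNA, and 6 fell and 3 rose under WB436B, with medians of -0.10 and -0.25. BIRC3, the ligase cIAP2 and itself an NF-kB target, held 1.13, 1.13 and 1.59 FPKM after the siRNA and 2.49, 2.77 and 3.07 FPKM under WB436B, against 5.48, 4.48 and 4.08 FPKM under vehicle. Its log2 fold changes were -1.31 and -0.58 (adjusted p = 3.49e-05 and 0.00204). TRADD, the adaptor of the tumour necrosis factor receptor, fell by 0.64 after the siRNA. Under WB436B it averaged 3.67 FPKM, against 5.87 FPKM under vehicle. IRAK1, a kinase of interleukin-1 and Toll-like receptor signalling, rose by 0.67 after the siRNA and by 0.75 under WB436B. TRAF1, an adaptor induced by NF-kB, had 1.32, 1.60 and 1.44 FPKM after the siRNA and 5.20, 5.38 and 5.49 FPKM under WB436B, against 1.32, 1.42 and 1.59 FPKM under vehicle. It rose by 1.38 under WB436B (adjusted p = 5.29e-07).

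Partners of A20 and deubiquitinases were tested in 8 of 9 genes, of which 2 fell and 1 rose after the siRNA, and 4 fell and none rose under WB436B, with medians of -0.17 and -0.21. TNIP1 (ABIN-1), a ubiquitin-binding partner of A20, held 22.4, 23.6 and 21.6 FPKM after the siRNA and 34.0, 34.6 and 35.8 FPKM under WB436B, against 45.9, 42.6 and 44.6 FPKM under vehicle. It fell by 0.95 (adjusted p = 1.9e-06) after the siRNA and by 0.34 (adjusted p = 0.000278) under WB436B, and median-of-ratios scaling ended the second call (-0.05, adjusted p = 0.39). CYLD, a deubiquitinase that dampens the pathway, fell by 0.65 after the siRNA and by 0.86 under WB436B. OTUD7B, also a deubiquitinase, rose by 0.21 after the siRNA and fell by 0.47 under WB436B. Its call after the siRNA was lost in the fit that joins the replicate block with median-of-ratios scaling (0.17, adjusted p = 0.0615).

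Of 5 other inhibitors and regulators, 2 rose after the siRNA and 1 under WB436B, and none fell, with medians of 0.32 and 0.21. Median-of-ratios scaling and quantile normalization each called 3 of them higher under WB436B, and after the siRNA median-of-ratios scaling called 1. NFKBIB, which encodes IkB-beta, held 17.0, 12.5 and 11.4 FPKM after the siRNA and 15.8, 15.0 and 16.2 FPKM under WB436B, against 9.23, 10.2 and 9.78 FPKM under vehicle. It rose by 0.43 after the siRNA (adjusted p = 0.018, or 0.0566 without vehicle 1) and by 0.63 under WB436B (adjusted p = 0.00183). NKIRAS2, a Ras-like protein that binds IkB, rose by 0.38 after the siRNA (adjusted p = 0.029). That call was lost without any 1 of vehicle 1, vehicle 2, siRNA 1, siRNA 2 or siRNA 3 (adjusted p = 0.0549 to 0.0788), and dropping the filter (adjusted p = 0.0728) or median-of-ratios scaling ended it too (0.33, adjusted p = 0.0591). Leaving out 1 library gave 0 to 3 called genes in this list after the siRNA, with none called without vehicle 1, and without WB436B 2 it had 2 called genes under WB436B, 1 of them lower.

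Of 11 receptors 7 were tested, of which 3 fell and none rose after the siRNA, and 4 fell and 2 rose under WB436B, with medians of -0.17 and -0.21. With no filter all 11 were tested, and 4 were called lower and 1 higher after the siRNA. The Toll-like receptor gene TLR2 fell by 0.70 after the siRNA and by 1.04 under WB436B. TLR4, with a mean of 0.179 FPKM after the siRNA and 1.97 FPKM under WB436B, against 0.796 FPKM under vehicle, fell by 0.61 and rose by 0.73. TLR4 reached 1 FPKM only under WB436B, so it was tested only through its level there. Its rise, included in the count of receptors, follows in part from that filter. IL1RAP, the interleukin-1 receptor accessory chain, fell by 0.26 after the siRNA and averaged 5.82 FPKM under WB436B, against 6.91 FPKM under vehicle. TLR3 fell by 0.80 under WB436B. Genes at these low levels are understated on the log2(FPKM + 1) scale.

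Of 25 textbook targets of NF-kB 17 were tested, of which 11 fell and 3 rose after the siRNA, and 7 fell and 5 rose under WB436B. The median log2 fold change was -0.75 after the siRNA and -0.28 under WB436B. CXCL8 (interleukin-8), LIF and the adhesion molecule gene ICAM1 had log2 fold changes of -1.96, -1.89 and -1.57 after the siRNA. IRF1, an interferon response factor, and LIF had -1.40 and -1.09 under WB436B. CXCL8 and ICAM1 averaged 12.2 and 13.8 FPKM under WB436B, against 18.1 and 24.1 FPKM under vehicle. After the siRNA IRF1 averaged 7.10 FPKM, against 12.6 FPKM under vehicle. CSF2, which encodes a haematopoietic growth factor, held 0.264, 0.111 and 0.411 FPKM after the siRNA and 5.19, 4.60 and 5.02 FPKM under WB436B. It was listed at 0.0842 FPKM in vehicle 1 and at 0 in vehicle 2 and 3. CSF2 reached 1 FPKM only under WB436B, so it was tested only through its level there. Its rise under WB436B, included in the counts of targets, follows in part from that filter. Between the treatments 11 of the 17 targets were higher and 1 was lower under WB436B, with a median of 0.74, while of all tested genes 20% were higher and 44.1% lower, with a median of -0.18.

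**Figure D5:**
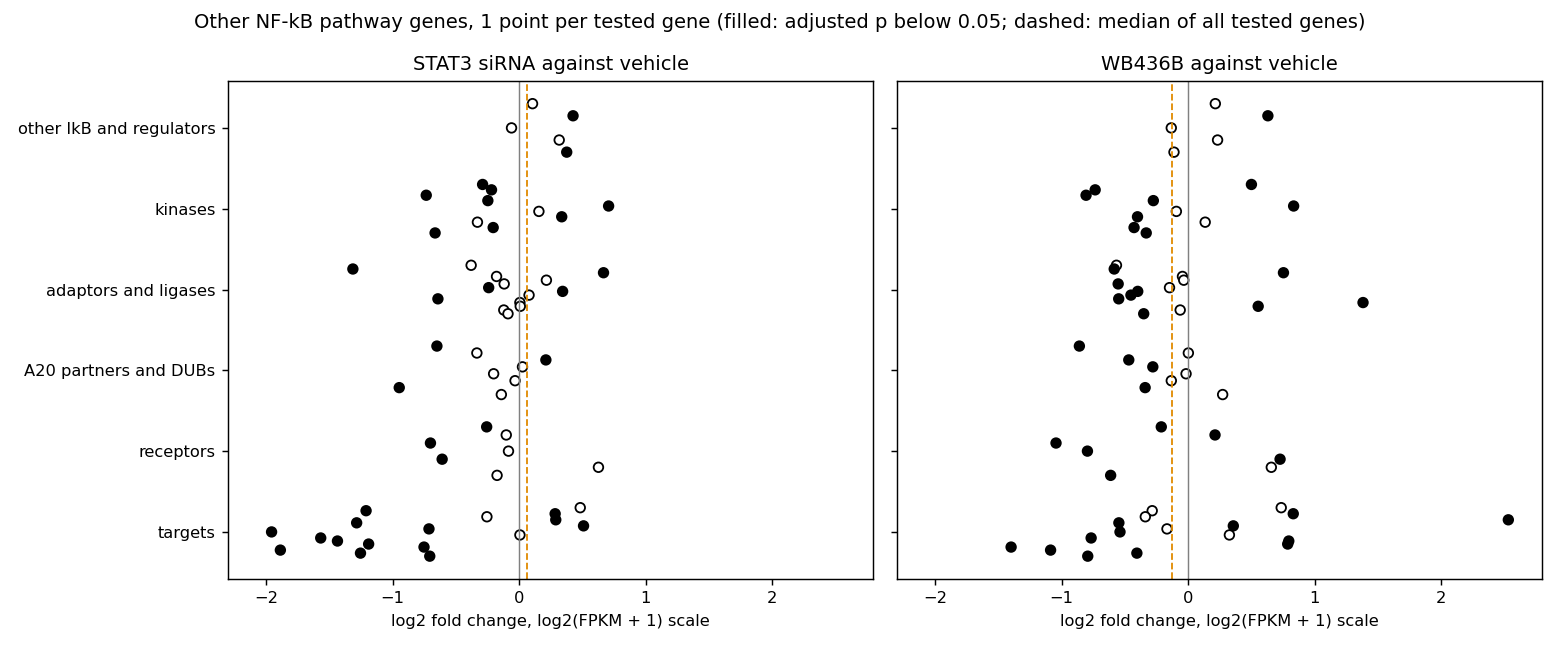
Log2 fold change of each tested pathway gene (1 point per gene, horizontal axis) by list, after STAT3 siRNA (left) and under WB436B (right), both against vehicle; filled points were called and the dashed line is the median of all tested genes. The targets reach from -1.96 to 0.51 after the siRNA and from -1.40 to 2.53 under WB436B. The value of 2.53 is that of CSF2, which reached 1 FPKM only under WB436B.

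The genes whose levels followed a member other than NFKB1 most closely over the 9 libraries were sought among 6295 tested genes that average at least 5 FPKM. Pearson's r of log2(FPKM + 1) is given as a description; with 3 groups it mostly reflects the order of the group means. NFKBIA was closest to NDRG1 and NTN4 (r = 0.997 and 0.996), BCL3 to RCOR1 and LY6D (0.994 and 0.991), and TNFAIP3 to TPX2 and ANLN (0.997 each). NFKBIE was closest to PSMA7 and PROCR (0.987 and 0.986), NFKB2 to VCP and EPHA2 (0.979 each) and RELB to BUB1B and BUB1 (0.952 and 0.947). The closest genes of NFKBIZ were REST and KLC1 (0.927 and 0.913), of REL SNAPIN and CTBP1 (0.897 and 0.895), and of RELA ADAP1 and UBL7 (0.858 and 0.855).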

How the data were processed

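The authors deposited 1 table of FPKM values, with a column per library, for 60564 human Ensembl gene identifiers with symbols; per the submitters' processing notes the reads were handled with Bowtie 0.12.2 and the build mm8, a mouse build, which leaves the true build unclear. RNA was isolated with a Qiagen kit and libraries followed Illumina protocols, per the labels' protocols. The sources used here do not give the program that computed FPKM, its annotation or strandedness. No sample was left out, and no other columns of per-sample values were present. No count model was applied, as FPKM are normalized values.

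The 12747 genes (21.0%) that reached 1 FPKM in 3 or more of 9 libraries were analysed as log2(FPKM + 1), which understates changes of weak genes. All libraries entered 1 limma-trend fit with a mean per group (limma 3.58.1, R 4.3.3), and two-sided p-values were Benjamini-Hochberg adjusted over all tested genes; SE is that of the log2 fold change. Shares and ratios used two-sided exact permutation tests over libraries. The fit was checked on simulated data. Depth was estimated from single-transcript genes of GENCODE 29, which held 96.5% of the identifiers; 1 FPKM then rests on 14.9 to 47.2 fragments per kilobase of transcript. All members are named. From each pathway list up to 3 called genes with the largest change against vehicle are named, and CHUK is named in addition. The genes most like NFKB1 are not reported here. The members and lists were chosen with earlier results of these data known. Alternatives were 2 smaller pseudocounts (0.1, 0.5), a filter of 5 FPKM or none, 3 other scalings, other variance models, fits of only the groups compared, a replicate block, stricter thresholds and leaving out each library.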

Additional observations from a re-analysis of the deposited data

How the results depend on the processing

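Of 624 values of a member's log2 fold change under an alternative, 585 kept their direction and their side of the threshold, 16 lost a call, 11 gained one in the same direction and 12 changed sign, all in values not called in the report, 4 of them then called (NFKB1 under WB436B and NFKBIA between the treatments, each with median-of-ratios scaling alone or with the replicate block). Leaving out 1 library gave 7 to 8 called members after STAT3 siRNA, 4 to 7 under WB436B and 5 to 6 between the treatments. With a log2 fold change of at least 1 in size required, 2, 2 and 1 members were called, beside 484, 1335 and 918 of all genes. The filter of 5 FPKM called 4138, 4860 and 4629 genes, since fewer genes were tested. Median-of-ratios scaling turned NFKB1 under WB436B to 0.15, and RELA and NFKBIA between the treatments to 0.16 and 0.21, and it did so with the replicate block as well. Of all genes called under WB436B, 37.7% were higher in the report's fit and 59.7% with median-of-ratios scaling; between the treatments these were 31.2% and 60.5%. The cause was not tested. Leaving out 1 library also changed signs near 0: REL after the siRNA ranged from -0.36 to 0.0729, RELA under WB436B from -0.12 to 0.19, BCL3 between the treatments from -0.058 to 0.0384, the RELA share under WB436B from -1.19 to 2.24 points and the log2 ratio of NFKBIA to RELA between the treatments from -0.0897 to 0.239. Deviations of same-numbered libraries correlated at -0.08 to 0.16, and those of differently numbered libraries at -0.12 to 0.07. Same-numbered siRNA and vehicle libraries correlated at 0.04, 0.12 and 0.16, so whether the numbers pair these groups cannot be told. With the replicate block 8, 6 and 5 members were called, as without it. Settings of pathway genes were chosen after seeing the data, and calls that a named gene lost are given beside it; the filter of 5 FPKM called fewer kinases, adaptors, A20 partners and receptors, since fewer were tested. With 3 libraries a group no exact test can go below 0.1.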
